A study of Mus musculus with 8 samples.

Results

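The collagen chain genes are the genes that encode the subunits of the collagens. They were taken here as every gene whose name in the array files is Col, a number, the letter a and a number, which gave 44 of the 36826 gene names on the array, on 92 probes. Of these 44 genes, 31 passed a filter that asks for a signal well above background on each array of 1 or more groups, as did 21264 of all genes, and only these were tested. The other 13 were Col6a4, Col6a5, Col6a6, Col8a2, Col9a1, Col9a3, Col10a1, Col11a1, Col19a1, Col23a1, Col24a1, Col25a1 and Col28a1. Expression was read on 1-colour arrays, 1 per mouse, in left kidneys removed 24 h after surgery from 8 mice in 4 groups of 2. Mimic mice (6 and 7) received 5 nmol of a miR-5100 mimic in 200 µl, bound to polyethylenimine nanoparticles, by tail vein 2 days before the injury surgery. Control-miRNA mice (1 and 5) received the same dose of a control miRNA on the same particles before the same surgery. IRI mice (30 and 34) had the injury surgery alone, which took out the right kidney and stopped blood flow to the left kidney for 45 min before letting it return (ischaemia and reperfusion, a model of acute kidney injury). Sham mice (1 and 4) had a midline incision, with neither clamping nor particles described for them. Clamping and loss of the right kidney therefore cannot be told apart against sham, and neither can the particles and the control miRNA against IRI. Strain, sex and age are not given in the sources used here.

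Collagen chains wind around each other into a rope-like helix, for which a glycine must recur at a fixed step along the chain, and the helices then assemble outside the cell. Types I, II, III, V, XI and XXVII form fibrils, type IV forms the net of basement membranes, type VI forms beaded filaments, and other types link, cover or anchor these structures. In the kidney, fibroblasts and pericytes make most interstitial collagen, and the glomerular basement membrane uses type IV chains that other basement membranes lack. Interstitial collagen builds up when acute injury passes into fibrosis.

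The glycine repeat can be read directly in some of the probes, the 60-base oligonucleotides that define what was measured. It was searched as GGN (a glycine codon) every 9 bases with at least 6 such codons, and 4 of the 92 collagen probes (4.35%) held it, against 9 of all 56605 probes (0.0159%). The 3 that passed the filter on dim probes are shown as examples of what the array reads, with the glycine codons in capitals. Their positions are those of mouse build mm9 in the array files, and the annotation of exons in that build was not used here. The Col15a1 probe lies at chr4:47283786-47283845 on the plus strand, the Col5a3 probe at chr9:20590066-20590795 on the minus strand and the Col6a3 probe at chr1:92689602-92690594 on the minus strand. The last 2 span more bases than the probe has.
Col15a1: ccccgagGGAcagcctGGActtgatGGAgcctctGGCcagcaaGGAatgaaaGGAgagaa
Col5a3: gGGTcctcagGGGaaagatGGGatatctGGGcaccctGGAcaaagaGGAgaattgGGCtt
Col6a3: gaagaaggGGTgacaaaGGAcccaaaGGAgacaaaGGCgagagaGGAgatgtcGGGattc

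The probe shown for Col15a1 is its only one that passed the filter and stood for the gene. Those shown for Col5a3 and Col6a3 are dimmer second probes, which are compared with the first ones below. Bases before the annotated start of transcription, from RefSeq on build GRCm38.p6, were found for 35 of the 44 genes, in 38 windows of 250 bases. They were searched on both strands for 3 short motifs. The core of the CCAAT box, spelled CCAAT, was in 13 of the 38 collagen windows (34.2%) and in 33.8% of all 32851 windows of this length. The core of the TATA box, spelled TATAA, was in 7 (18.4%), against 22.8% of all windows. The core of the GC box, spelled GGGCGG, was in 22 (57.9%), against 32.7% of all windows. Matches may overlap each other. The median GC content was 59% in the collagen windows and 52.4% in all windows. These are descriptions, without a test. The windows of Col1a2 and Col3a1 are shown because both chains were highest in mimic kidneys. Those of Col4a1 and Col4a2 are shown because these genes lie on opposite strands with annotated starts 21 bases apart. By these starts, the window of each lies downstream of the start of the other. The capitals mark the motifs. The windows lie at chr6:4505368-4505617 (Col1a2, plus strand), chr1:45311288-45311537 (Col3a1, plus strand), chr8:11312827-11313076 (Col4a1, minus strand) and chr8:11312555-11312804 (Col4a2, plus strand).
Col1a2: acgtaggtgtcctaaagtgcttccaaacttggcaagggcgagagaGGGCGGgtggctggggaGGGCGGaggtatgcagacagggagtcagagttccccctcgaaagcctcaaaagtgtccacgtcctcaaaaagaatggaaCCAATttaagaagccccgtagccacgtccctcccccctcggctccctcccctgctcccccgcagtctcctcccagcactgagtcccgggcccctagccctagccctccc
Col3a1: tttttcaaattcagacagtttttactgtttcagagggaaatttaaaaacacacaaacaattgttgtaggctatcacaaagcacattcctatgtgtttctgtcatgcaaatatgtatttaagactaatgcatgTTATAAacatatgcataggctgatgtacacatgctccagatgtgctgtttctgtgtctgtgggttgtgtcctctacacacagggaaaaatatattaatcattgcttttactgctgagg
Col4a1: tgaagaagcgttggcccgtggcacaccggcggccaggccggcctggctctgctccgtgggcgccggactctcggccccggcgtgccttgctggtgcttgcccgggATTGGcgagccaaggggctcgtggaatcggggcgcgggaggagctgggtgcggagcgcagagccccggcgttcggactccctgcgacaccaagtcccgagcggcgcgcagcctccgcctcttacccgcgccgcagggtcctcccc
Col4a2: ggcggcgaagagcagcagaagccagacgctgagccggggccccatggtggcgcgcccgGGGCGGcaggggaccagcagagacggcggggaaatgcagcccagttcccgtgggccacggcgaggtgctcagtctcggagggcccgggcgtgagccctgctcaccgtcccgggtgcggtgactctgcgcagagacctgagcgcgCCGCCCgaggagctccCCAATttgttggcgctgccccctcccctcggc

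CCAAT or its reverse complement stood in the windows of Col1a2, Col4a1 and Col4a2 and not in that of Col3a1, which held TATAA. The agent given to the mimic mice has the mature sequence of mouse miR-5100, which RefSeq places on chromosome 11 from 60728698 to 60728718, plus strand, in the same build. Its seed, bases 2 to 8, is in capitals.
miR-5100: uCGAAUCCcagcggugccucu

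A level below is the log2 of the array's processed signal minus the log2 of that array's 75th percentile, so 0 is the 75th percentile and each step of 1 doubles the signal. Levels of different genes come from different probes and are not set against each other. Differences are log2 differences ± standard error from limma, fitted over all 8 arrays with 2 mice per group, and p-values are adjusted by Benjamini-Hochberg over all 21264 genes, with calls made at an adjusted p under 0.05. The p-values measure the spread between these mice. The 75th percentile signal was 305 and 239 for mimic, 495 and 410 for control miRNA, 462 and 589 for IRI and 401 and 469 for sham, so the mimic arrays were the dimmest. Over all genes, the SD of the within-group difference was 0.67 in mimic, 0.51 in control-miRNA, 0.39 in IRI and 0.33 in sham mice. The tissue carried its markers, with all 8 proximal tubule, all 10 podocyte and all 10 endothelial markers passing the filter on dim probes.

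Some chains were higher and others lower 24 h after injury alone. In IRI against sham kidneys, 6 of the 31 measured chains were called higher, where 9.47% of all genes were, and 5 were called lower, where 8.81% of all genes were. The chains called higher were Col18a1, Col16a1, Col8a1, Col27a1, Col5a3 and Col5a1, and those called lower were Col5a2, Col14a1, Col4a4, Col4a3 and Col6a1. The median difference of the 31 chains was 0.13, against -0.08 over all genes. The numbers of calls rested on every array of the comparison, for the chains and for all genes. Without sham 1, IRI 30 or IRI 34, 2 chains were called higher, and without sham 4, 3 were, while 1 chain was called lower without each of the 4. All genes called higher then numbered 448 to 547, against 2013, and those called lower 351 to 529, against 1874. With array brightness as a covariate 1 chain was called lower, and with slide column 2 were. All genes called lower then numbered 844 and 1100, against 1874. Sham arrays lay in slide columns 1 and 2 and IRI arrays in columns 3 and 4, so injury and slide column cannot be told apart. The column covariate compared columns within groups only, so it could not adjust this difference for the column. Col18a1, Col16a1 and Col5a2 kept their calls in each of the 18 other settings.

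Over the 6 injured kidneys together the balance lay towards higher levels. In all injured against sham kidneys 12 of 31 chains were called higher, where 13.4% of all genes were, and 3 were called lower, where 12.2% were. The median difference was 0.49, against -0.01 over all genes. Every injured array lay above both sham arrays for 10 chains, which 17.8% of all genes did, and below both for 3, which also 17.8% of all genes did. Without sham 1 there were 6 chains called higher and 0 lower, and without sham 4 there were 7 higher and 0 lower. All genes called higher numbered 754 without sham 1 and 744 without sham 4, against 2857. Without mimic 7 more chains were called lower, and so were more of all genes.

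**Figure D1:**
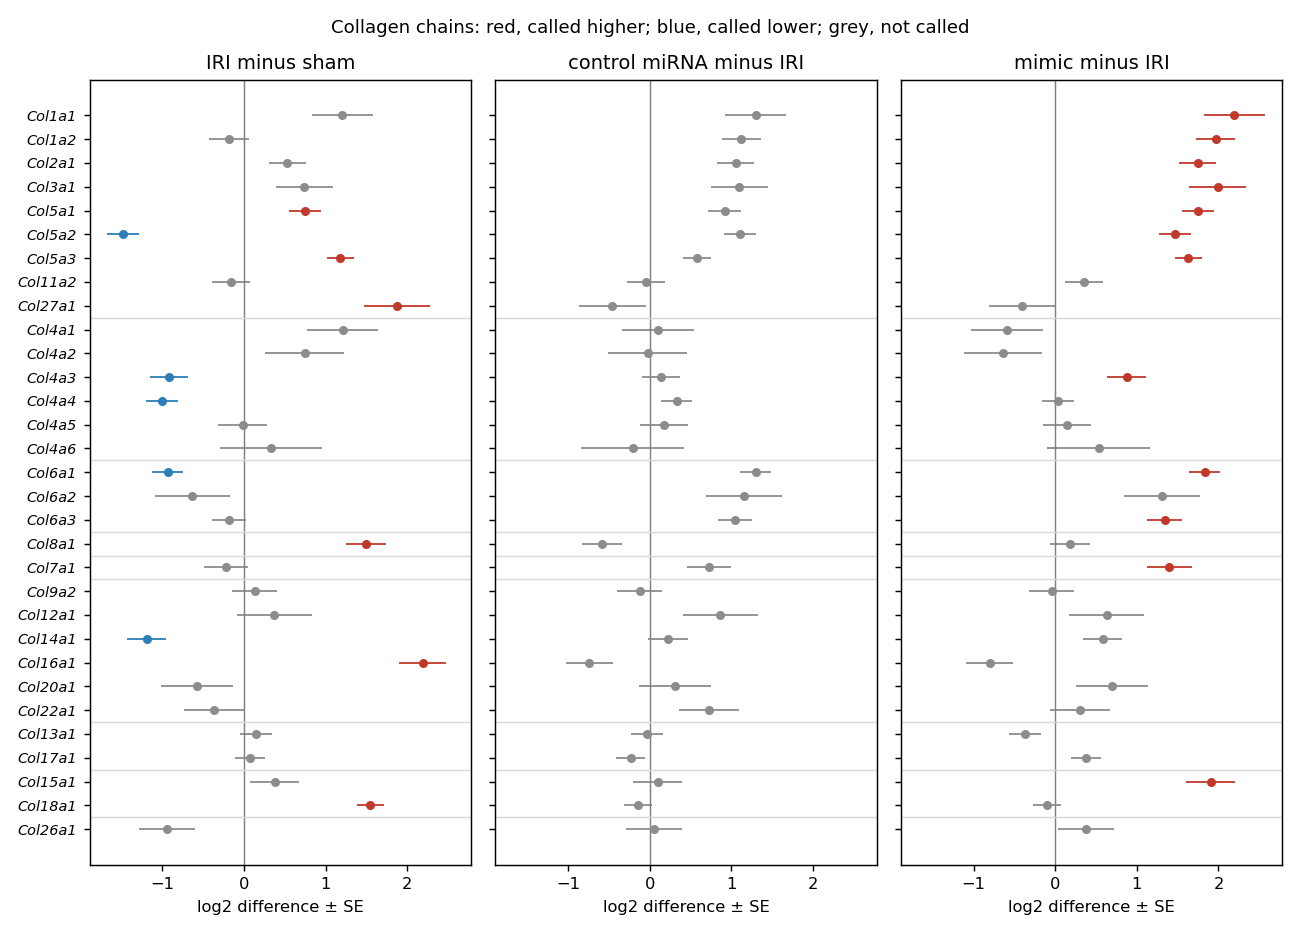
Log2 differences ± standard error (x axis) of the 31 measured collagen chains (y axis, grouped from top to bottom as fibrillar, type IV, type VI, Col8a1, Col7a1, fibril-associated, transmembrane, Col15a1 with Col18a1, and Col26a1) in IRI minus sham, control miRNA minus IRI and mimic minus IRI, with 2 mice per group. The fibrillar and type VI chains lie mostly right of 0 in the panels against IRI, with 12 chains called higher in mimic minus IRI and 0 called in control miRNA minus IRI.

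Of the fibrillar chains, 9 of 11 passed the filter on dim probes. Against sham, 3 were called higher and 1 lower in IRI kidneys, and 7 higher and 1 lower over all injured kidneys. Of all genes, 9.47% were called higher and 8.81% lower in IRI kidneys, and 13.4% and 12.2% over all injured kidneys. Col1a1, which encodes the more abundant chain of type I collagen, had levels of 3.26 and 4.13 in mimic, 2.93 and 2.67 in control-miRNA, 1.96 and 1.04 in IRI and 0.27 and 0.33 in sham kidneys. The groups did not overlap, and the order ran from mimic at the top to sham at the bottom. Over all injured kidneys Col1a1 was 5.16-fold higher than in sham (2.37 ± 0.31, adjusted p = 0.00296), while IRI alone gave 1.20 ± 0.38 (adjusted p = 0.0695).

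Col3a1, the chain of type III collagen, which forms thin fibrils with type I, had levels of 3.19 and 3.98 in mimic, 2.89 and 2.50 in control-miRNA, 1.95 and 1.24 in IRI and 0.70 and 1.02 in sham kidneys. It showed the same order without overlap, and over all injured kidneys it was 3.41-fold higher than in sham (1.77 ± 0.29, adjusted p = 0.00643). It kept that call in 16 of 17 other settings, and its adjusted p was 0.0724 (1.61) without sham 1. Col1a2, the other chain of type I collagen, had levels of 4.56 and 4.82 in mimic, 4.07 and 3.62 in control-miRNA, 2.97 and 2.48 in IRI and 2.87 and 2.95 in sham kidneys. IRI and sham arrays overlapped for Col1a2, with a difference of -0.19 ± 0.24 (adjusted p = 0.617). Whether the chains of type I collagen differ from each other in this was not tested.

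The array carries other probes for these genes, and they did not all give the same size of difference. The 3 probes of Col1a1 that passed the filter ranged from 0.74 to 1.20 in IRI minus sham and from 1.86 to 2.37 in all injured minus sham. Of the 3 passing probes of Col1a2, the one that stood for the gene (highest mean signal) lies at chr6:4490619-4490678, and the other 2 lie at chr6:4479333-4479392 and chr6:4464456-4464515 in mm9, designed on Ensembl transcripts. Neither was well above background in sham, and over all injured kidneys they were at least 4.51-fold and at least 2.24-fold higher than in sham (adjusted p = 0.000915 and 0.00240, over all 32218 probes).

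The same held for Col3a1. Its other 2 passing probes, at chr1:45381765-45381824 and chr1:45373784-45373843, were also not well above background in sham and at least 4.68-fold and at least 4.19-fold higher over all injured kidneys (adjusted p = 0.000706 and 0.000510, over all probes). The first of them had levels of -1.27 and -0.57 in mimic, -2.93 and -2.81 in control-miRNA and -3.56 and -3.56 in IRI kidneys. With the mean over a gene's probes in place of the brightest, Col1a2 in IRI minus sham was 0.95 (adjusted p = 0.0422) and turned its sign. For Col3a1 in IRI minus sham, the probe that stood for the gene gave 0.74 (adjusted p = 0.198, over all probes). Its other 2 probes were at least 2.16-fold and at least 1.96-fold higher (adjusted p = 0.00702 and 0.00731, over all probes). Statements on Col1a2 and Col3a1 in IRI against sham thus depend on the probe.

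**Figure D2:**
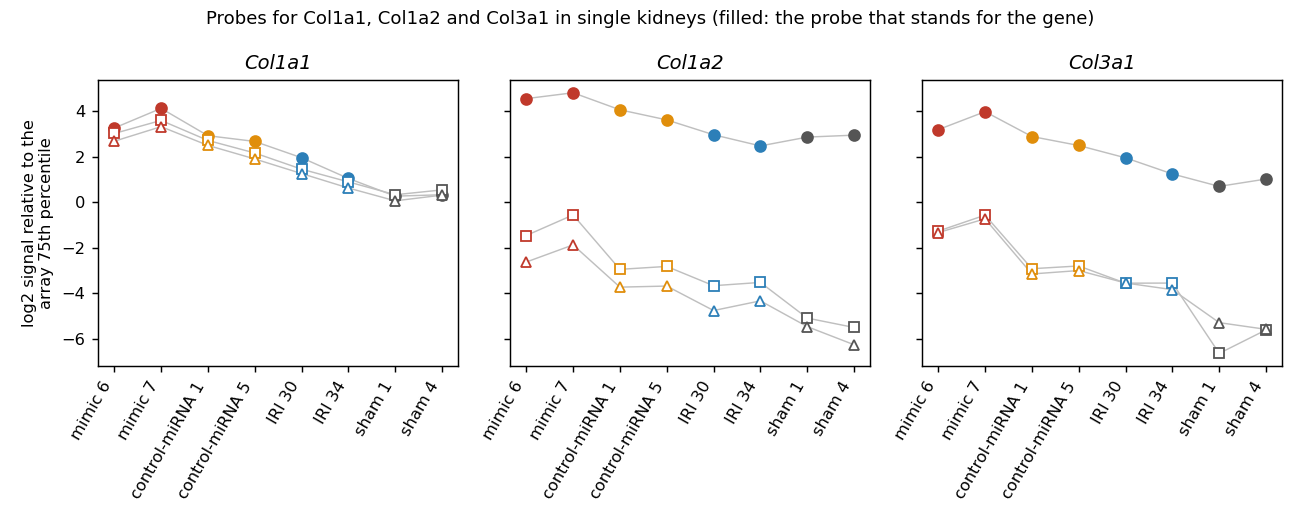
Levels (y axis, log2 signal relative to the 75th percentile of the array) of each passing probe for Col1a1, Col1a2 and Col3a1 on the 8 arrays (x axis), with filled points for the probe that stands for the gene and open points for the others. For Col1a2 IRI and sham overlap on the filled probe, while both open probes lie lowest in sham.

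Type V collagen, which starts fibrils and sets their width, had chains that went opposite ways. Col5a1 had levels of 0.94 and 1.23 in mimic, 0.39 and 0.11 in control-miRNA, -0.52 and -0.82 in IRI and -1.44 and -1.39 in sham kidneys, a rise of 0.75 ± 0.20 in IRI against sham (adjusted p = 0.0439). Col5a3 had 0.20 and 0.20 in mimic, -0.96 and -0.73 in control-miRNA, -1.46 and -1.40 in IRI and -2.73 and -2.49 in sham kidneys, 2.27-fold higher in IRI than in sham (adjusted p = 0.00656). For both, no group overlapped another.

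Col5a2, the chain that joins Col5a1 in the common form of type V, had levels of -2.89 and -2.76 in mimic, -3.30 and -3.08 in control-miRNA, -4.31 and -4.29 in IRI and -2.60 and -3.02 in sham kidneys. It fell by 1.48 on the log2 scale in IRI against sham (SE 0.20, adjusted p = 0.00504), and the mimic arrays lay within the sham range. Over all injured kidneys Col5a1 rose by 1.64 ± 0.16 (adjusted p = 0.00115) and Col5a3 by 1.92 ± 0.14 (adjusted p = 0.000495), while Col5a2 fell by 0.62 (SE 0.16, adjusted p = 0.0305). Col5a2 kept that last call in 9 of 17 other settings and its IRI call in all 18. The second probe of Col5a3, the one shown above, was not well above background in sham or in mimic 7. Over all injured kidneys it was at least 1.65-fold higher than in sham (adjusted p = 0.0261, over all probes). In mimic minus IRI it gave 0.26 (adjusted p = 0.383, over all probes), against 1.63 for the first probe. The size of the Col5a3 difference between mimic and IRI kidneys thus depends on the probe.

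Col27a1, a fibrillar chain of developing cartilage, had levels of -1.14 and -0.28 in mimic, -1.30 and -0.21 in control-miRNA, -0.35 and -0.26 in IRI and -2.26 and -2.10 in sham kidneys. It was 3.67-fold higher in IRI than in sham (adjusted p = 0.0241), and all 6 injured arrays lay above sham and overlapped each other. Col2a1, the main fibrillar chain of cartilage, had levels of -1.32 and -0.94 in mimic, -1.72 and -1.91 in control-miRNA, -2.63 and -3.11 in IRI and -3.38 and -3.42 in sham kidneys. It rose over all injured kidneys by 1.46 ± 0.18 (adjusted p = 0.00263), and 5 of 6 cartilage and bone markers did not pass the filter on dim probes. Col11a2 was above background on 6 of 8 arrays only, with differences from -0.16 to 0.40 over the 6 comparisons, none called.

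**Figure D3:**
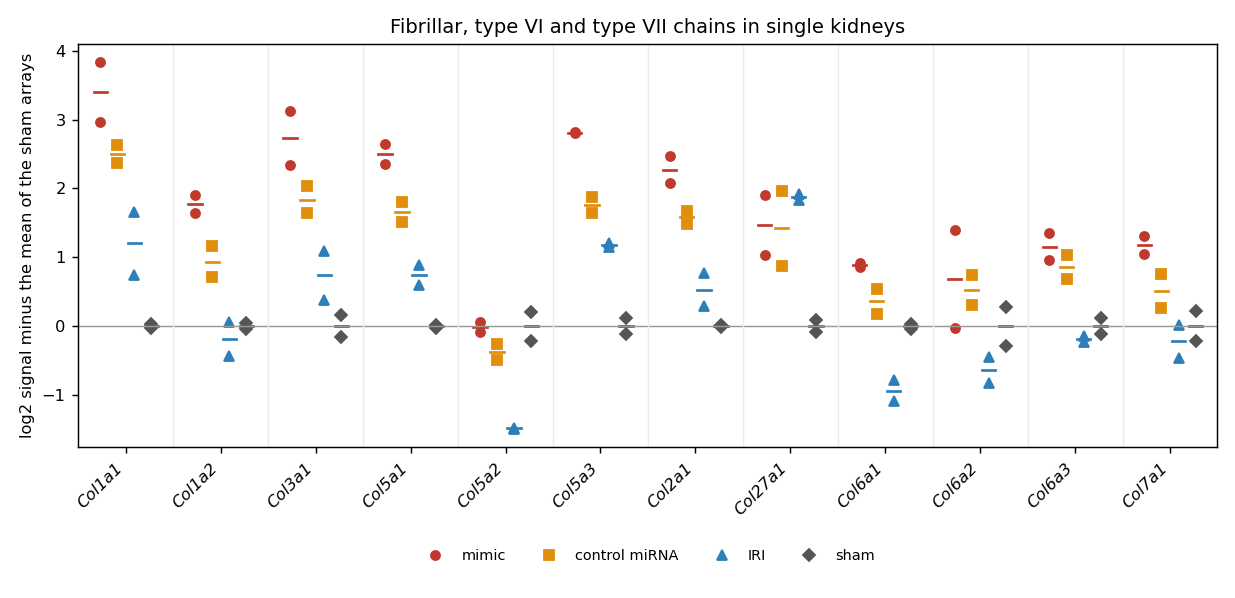
Levels of 12 fibrillar, type VI and type VII chains in single kidneys, as the difference from the mean of the sham arrays (y axis, log2), with points for mice and bars for group means. Mimic lies above control miRNA and control miRNA above IRI in 11 of the 12 chains by their means, and Col27a1 is the exception.

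Type IV chains fell into pairs in IRI against sham kidneys. Col4a1 and Col4a2, the chains of nearly all basement membranes, lay higher in 5 of the 6 injured kidneys. Col4a1 had levels of 3.06 and 1.60 in mimic, 3.24 and 2.81 in control-miRNA, 2.86 and 2.97 in IRI and 1.82 and 1.61 in sham kidneys. Col4a2 had 2.53 and 0.86 in mimic, 2.43 and 2.20 in control-miRNA, 2.25 and 2.43 in IRI and 1.68 and 1.51 in sham kidneys. Mimic 7 lay below both sham arrays for both genes, and the difference between the mimic mice for Col4a2, 1.67, was the largest within any group among the 31 chains. In IRI minus sham Col4a1 gave 1.21 ± 0.44 (adjusted p = 0.105) and Col4a2 0.74 ± 0.48 (adjusted p = 0.318), and neither was called. Col4a1 passed in IRI minus sham in 4 of the 18 other settings and Col4a2 in 3.

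Col4a3 and Col4a4, which together with Col4a5 build the glomerular basement membrane, were lower in IRI than in sham kidneys. Col4a4 had levels of 1.18 and 1.49 in mimic, 1.81 and 1.45 in control-miRNA, 1.33 and 1.27 in IRI and 2.32 and 2.28 in sham kidneys. All 6 injured arrays lay below sham, with falls of 1.00 in IRI (SE 0.19, adjusted p = 0.0170) and 0.88 over all injured kidneys (SE 0.16, adjusted p = 0.00936), and its second probe gave -1.06 and -0.83. Col4a3 had 1.59 and 2.04 in mimic, 1.23 and 0.93 in control-miRNA, 1.07 and 0.81 in IRI and 2.03 and 1.69 in sham kidneys. It fell by 0.92 in IRI against sham (SE 0.23, adjusted p = 0.0384), a call kept in 9 of 18 other settings, while the mimic arrays overlapped sham. Col4a3 was higher in mimic than in IRI by 0.87 ± 0.23 (adjusted p = 0.0495), a call kept in 4 of 18 settings. Col4a4 gave 0.04 in mimic minus IRI and its second probe 0.56, and neither was called.

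Col4a5 lay between 0.30 and 1.03 on all 8 arrays, and Col4a6, a chain of Bowman's capsule and other basement membranes, between -3.35 and -1.25, with no call for either in any of the 6 comparisons. Podocytes make the glomerular chains, and the summed linear level of the 10 podocyte markers was lower in IRI than in sham kidneys, as these chains were. It was 20.1 and 38.2 in mimic, 31.6 and 5.69 in control-miRNA, 14.0 and 13.1 in IRI and 23.0 and 28.3 in sham kidneys. Over the other kidneys the sum did not follow these chains, as control-miRNA 5 was lowest and mimic 7 and control-miRNA 1 lay above both sham arrays. In IRI minus sham 1 of the 10 markers was called lower, where 8.81% of all genes were, and none higher, where 9.47% were. Their part in the Col4a3 and Col4a4 differences was not tested. In whole kidney tissue, fewer cells of a type and less RNA per cell cannot be told apart.

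**Figure D4:**
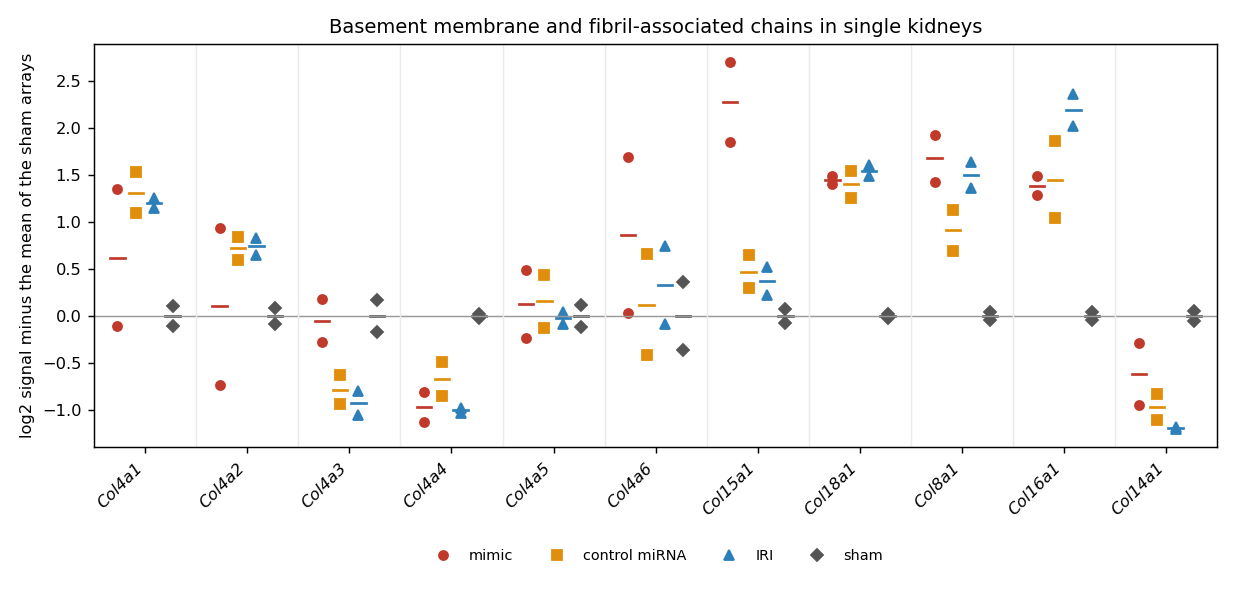
Levels of 11 type IV, fibril-associated and other chains in single kidneys, as the difference from the mean of the sham arrays (y axis, log2), with points for mice and bars for group means. Col18a1, Col8a1 and Col16a1 lie above sham in all 6 injured kidneys, Col4a4 and Col14a1 lie below, and 1 mimic kidney lies below sham for Col4a1 and Col4a2.

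Col18a1, a basement membrane collagen that carries heparan sulphate and yields the fragment endostatin, differed between injured and sham kidneys with little spread. It had levels of 5.42 and 5.50 in mimic, 5.56 and 5.27 in control-miRNA, 5.61 and 5.50 in IRI and 3.99 and 4.04 in sham kidneys. The 3 injured groups overlapped each other and all lay above sham, 2.92-fold in IRI (adjusted p = 0.00260) and 2.76-fold over all injured kidneys (adjusted p = 0.000942). Over the other settings the IRI difference stayed between 1.46 and 1.60. Col15a1, its closest relative, which ties basement membranes to fibrils, behaved otherwise. It had -0.65 and 0.20 in mimic, -2.20 and -1.86 in control-miRNA, -1.98 and -2.28 in IRI and -2.43 and -2.58 in sham kidneys, so the mimic arrays stood apart and the IRI difference from sham was 0.37 ± 0.30 (adjusted p = 0.413).

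Col8a1, a network-forming chain of vessel walls and the cornea, had levels of 2.63 and 2.13 in mimic, 1.39 and 1.83 in control-miRNA, 2.06 and 2.34 in IRI and 0.66 and 0.74 in sham kidneys. It was 2.83-fold higher in IRI than in sham (adjusted p = 0.00988). Col16a1, a fibril-associated chain, had levels of 2.10 and 2.30 in mimic, 1.86 and 2.68 in control-miRNA, 3.18 and 2.83 in IRI and 0.86 and 0.78 in sham kidneys. It showed the largest IRI difference of the 31 chains, 4.56-fold (2.19 ± 0.29, adjusted p = 0.00488), and IRI arrays stood above both injected groups. A dimmer second probe of Col16a1 was well above background on 4 of 8 arrays, both IRI arrays and sham 4 among them but not sham 1, and was not called in IRI minus sham (adjusted p = 0.287 over all probes).

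Col14a1, a fibril-associated chain that controls fibril growth, had levels of -3.79 and -3.12 in mimic, -3.94 and -3.68 in control-miRNA, -4.03 and -4.04 in IRI and -2.79 and -2.90 in sham kidneys. It fell by 1.19 in IRI against sham (SE 0.24, adjusted p = 0.0195), and all injured arrays lay below sham. Of the other fibril-associated chains, Col9a2 and Col20a1 were not above background on every array, and Col12a1 and Col22a1 gave differences from sham of 0.37 ± 0.46 and -0.37 ± 0.37 in IRI. The transmembrane chains Col13a1 and Col17a1 gave 0.15 ± 0.20 and 0.07 ± 0.18, and Col26a1 gave -0.94 ± 0.34 (adjusted p = 0.103).

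Of the chains called higher in mimic than in IRI kidneys, most were fibrillar, and the calls rested on the settings. In mimic against IRI kidneys 12 of 31 chains were called higher, where 9.85% of all genes were, and 0 were called lower, where 5.59% of all genes were. In 11 of 18 other settings 0 chains were called higher. At an unadjusted p under 0.05, 15 of 31 chains and 8436 of 21264 genes passed in either direction. The 12 were 7 fibrillar chains (Col1a1, Col1a2, Col2a1, Col3a1, Col5a1, Col5a2 and Col5a3), Col6a1, Col6a3, Col7a1, Col15a1 and Col4a3. Of these, 11 shared an adjusted p of 0.0389, just under the threshold. The median difference was 0.58 over the 31 chains and 1.74 over the 9 fibrillar ones, against 0.09 over all genes. Mimic and IRI arrays lay in different rows and columns of the slide, so treatment and slide position cannot be told apart.

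Col1a1 was 4.58-fold higher in mimic than in IRI (2.20 ± 0.38), Col3a1 3.97-fold (1.99 ± 0.35), Col1a2 3.90-fold (1.96 ± 0.24) and Col15a1 3.74-fold (1.90 ± 0.30). Of the 3 measured type VI chains, which form filaments around cells and vessels, 2 were called higher. Col6a1 had levels of 1.63 and 1.57 in mimic, 1.25 and 0.88 in control-miRNA, -0.08 and -0.38 in IRI and 0.67 and 0.74 in sham kidneys. It was the chain that fell with injury alone, by 0.94 against sham (SE 0.19, adjusted p = 0.0208), and stood above sham in all 4 injected kidneys, 3.55-fold higher in mimic than in IRI.

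Col6a3 had levels of 0.64 and 0.25 in mimic, 0.32 and -0.02 in control-miRNA, -0.85 and -0.94 in IRI and -0.83 and -0.59 in sham kidneys, and was 1.34 ± 0.21 higher in mimic than in IRI. Its second probe, shown above, gave 1.64. In control miRNA minus IRI the second probe gave 0.23 and the first 1.05. In mimic minus control miRNA the second gave 1.41 and the first 0.29. The place of the control-miRNA kidneys for Col6a3 thus depends on the probe. Col6a2 had -1.89 and -3.31 in mimic, -2.54 and -2.97 in control-miRNA, -3.72 and -4.10 in IRI and -3.00 and -3.56 in sham kidneys. Its difference of 1.31 ± 0.46 in mimic minus IRI was not called (adjusted p = 0.0860). Col7a1, the anchoring fibril chain, had 0.18 and 0.45 in mimic, -0.60 and -0.11 in control-miRNA, -0.84 and -1.32 in IRI and -0.64 and -1.08 in sham kidneys, with 1.40 ± 0.27 in mimic minus IRI.

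The 12 chains kept their sign in all 18 other settings, and the number called higher was 0 with array brightness or slide column as a covariate, with array weights, or with the arrays of these groups alone. It was also 0 without any 1 of sham 1, sham 4, IRI 30, IRI 34, mimic 7, control-miRNA 1 or control-miRNA 5, and 14 without mimic 6, where 4063 of all genes were called higher. In each of these settings with 0 chains called, 0 of all genes were called higher.

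No chain was called between control-miRNA and IRI kidneys. In control-miRNA against IRI kidneys 0 of 31 chains were called higher and 0 lower in limma, as were 0% of all genes in each direction. At an unadjusted p under 0.05, 13 of 31 chains passed, and 864 of 21264 genes did. Both control-miRNA arrays lay above both IRI arrays for 15 chains, which 17.0% of all genes did, and below both for 3, which 15.5% of all genes did. The largest differences of the 31 chains were Col1a1 (1.30 ± 0.38), Col6a1 (1.30 ± 0.19), Col6a2 (1.16 ± 0.46) and Col1a2 (1.12 ± 0.24). Col15a1 and Col4a3, which were called in mimic against IRI, gave 0.10 ± 0.30 and 0.14 ± 0.23. The median difference was 1.05 over the 9 fibrillar chains and 0.23 over all 31, against 0.01 over all genes.

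The 4 injected kidneys were then set together against IRI, a comparison added after the levels had been seen. In injected against IRI kidneys 0 of 31 chains were called in either direction in limma, as were 0% of all genes. At an unadjusted p under 0.05, 14 of 31 chains and 4277 of 21264 genes passed. All 4 injected arrays lay above both IRI arrays for 12 chains, which 9.45% of all genes did, and below both for 1, Col16a1, which 8.52% of all genes did. Col6a1 gave 1.56 ± 0.17, Col1a2 1.54 ± 0.21, Col5a1 1.34 ± 0.17 and Col5a2 1.29 ± 0.17, with adjusted p between 0.0958 and 0.0979. Without mimic 6, 11 chains were called higher and 1 lower, as were 1091 and 1258 of all genes. Injected arrays lay in another row of the slide than IRI and sham arrays, so injection and slide row cannot be told apart.

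Mimic and control-miRNA kidneys, which by their descriptions differ in the small RNA alone, gave no called chain. Their arrays lay in different slide columns (1 and 2 for mimic, 3 and 4 for control miRNA). The small RNA and the slide column therefore cannot be told apart. In mimic against control-miRNA kidneys 0 of 31 chains were called higher and 0 lower in limma, as were 0% of all genes in each direction. At an unadjusted p under 0.05, 12 of 31 chains and 7180 of 21264 genes passed. Of the 31 chains 23 had a higher mean in mimic, the 9 fibrillar ones among them, as did 11658 of 21264 genes. The median difference was 0.37, against 0.07 over all genes. Col15a1 gave 1.80 ± 0.30, Col5a3 1.05 ± 0.17 and Col5a1 0.84 ± 0.20, each with an adjusted p of 0.0670, and the arrays of the groups did not overlap for any of them. Without mimic 6, 10 chains were called higher and 2 lower, as were 3219 and 3099 of all genes. With normexp background correction 7 chains were called higher and 0 lower, as were 3916 and 1909 of all genes.

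Fibroblast markers were higher in mimic than in IRI kidneys, as the fibrillar chains called there were. Of 10 such markers 9 passed the filter on dim probes and Lum did not. Their summed linear level was 14.8 and 20.9 in mimic, 9.19 and 9.98 in control-miRNA, 7.04 and 7.27 in IRI and 14.3 and 16.0 in sham kidneys. In mimic minus IRI 6 of 9 were called higher with a median of 1.58, and in IRI minus sham 2 of 9 were called lower with a median of -0.47. Of all genes, 9.85% were called higher in mimic minus IRI and 8.81% lower in IRI minus sham. Unlike Col1a1, Col3a1 and Col5a1, the sum was higher in sham than in IRI kidneys. Dcn, the collagen-binding proteoglycan decorin, fell by 2.45 in IRI against sham (SE 0.31, adjusted p = 0.00416), and Pdgfra, a growth factor receptor of fibroblasts, by 0.90 (SE 0.18, adjusted p = 0.0190).

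Smooth muscle markers summed to 114 and 39.0 in mimic, 54.0 and 24.6 in control-miRNA, 33.8 and 26.9 in IRI and 14.3 and 17.5 in sham kidneys. Endothelial markers summed to 26.8 and 35.6 in mimic, 16.7 and 18.1 in control-miRNA, 16.2 and 16.6 in IRI and 23.3 and 28.2 in sham kidneys, and 5 of 10 were called higher in mimic minus IRI. Macrophage markers summed to 37.1 and 71.2 in mimic, 17.5 and 22.4 in control-miRNA, 16.4 and 14.8 in IRI and 48.7 and 34.7 in sham kidneys. Of these 8 markers 3 were called higher and none lower in mimic minus IRI, and 1 higher and 3 lower in IRI minus sham. Of all genes, 9.85% were called higher and 5.59% lower in mimic minus IRI, and 9.47% and 8.81% in IRI minus sham. Mimic kidneys thus had higher summed levels than IRI kidneys for all 4 lists. Both mimic sums also lay above both IRI sums for proximal tubule markers (1040 and 1222 against 831 and 770) and podocyte markers. They did so for hepatocyte, skeletal muscle and adrenal cortex markers too. The hepatocyte sums were 35.4 and 76.9 in mimic against 19.7 and 34.7 in IRI, and of these 4 markers 2 were higher and 2 lower in mimic. Of 6 cartilage and bone markers only 1 passed the filter on dim probes. It was dim, at 0.0624 and 0.0654 in mimic against 0.0239 and 0.0382 in IRI. Mimic and IRI sums overlapped for distal tubule and duct markers and for adipose markers. The higher sums were thus not particular to the 4 lists. The part of these cells in the collagen differences was not tested.

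Of 20 listed enzymes, chaperones and factors of chain synthesis 19 were measured, and 4 were called higher and 1 lower in IRI against sham, where 9.47% and 8.81% of all genes were. Serpinh1, the collagen chaperone HSP47, had levels of 3.92 and 4.39 in mimic, 3.37 and 2.96 in control-miRNA, 3.23 and 3.47 in IRI and 2.40 and 2.44 in sham kidneys, a rise of 0.93 ± 0.23 in IRI (adjusted p = 0.0366). Plod3 and Colgalt1, which hydroxylate collagen lysines and attach sugars to them, rose by 1.04 ± 0.15 and 0.79 ± 0.16. Fkbp10, a prolyl isomerase of the endoplasmic reticulum, rose by 0.81 ± 0.21, with levels of 2.49 and 2.03 in mimic, 1.62 and 1.44 in control-miRNA, 0.97 and 0.82 in IRI and -0.03 and 0.20 in sham kidneys. Its groups stood in the same order as those of Col1a1, without overlap.

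In mimic against IRI kidneys 3 of the 19 were called higher and 1 lower, where 9.85% and 5.59% of all genes were. Creb3l1, a transcription factor that activates type I collagen genes, had levels of 1.23 and 0.88 in mimic, -0.35 and -0.05 in control-miRNA, -0.53 and -1.12 in IRI and -0.48 and -0.99 in sham kidneys, 1.88 ± 0.28 higher in mimic than in IRI. Tram2, which is needed for type I collagen synthesis, was 1.29 ± 0.22 and Fkbp10 1.37 ± 0.21 higher, and P4hb, a subunit of the prolyl hydroxylase, fell by 1.06 (SE 0.20), all 4 at an adjusted p of 0.0389. For Creb3l1 and Tram2 the mimic arrays stood above the other 6.

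Of 14 genes that trim and crosslink procollagen outside the cell 12 were measured, with 1 called higher in IRI against sham, 5 over all injured kidneys and 3 in mimic against IRI, and none lower. Of all genes, 9.47%, 13.4% and 9.85% were called higher in these comparisons, and 8.81%, 12.2% and 5.59% lower. Bmp1, which removes the C-terminal propeptide, rose by 1.01 ± 0.25 in IRI against sham (adjusted p = 0.0381). Adamts14 and Adamts2, which remove N-terminal propeptides, were 2.30 ± 0.35 and 1.69 ± 0.28 higher in mimic than in IRI, and Loxl2, a crosslinking oxidase, 1.29 ± 0.26 higher (adjusted p = 0.0389 each).

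Of 10 collagen receptor genes 8 were measured. In IRI against sham Itgb1, the shared integrin subunit, rose by 0.93 ± 0.17 (adjusted p = 0.0150) and Ddr1, a receptor kinase of epithelia, by 0.68 ± 0.16 (adjusted p = 0.0309), while Ddr2 fell by 0.83 (SE 0.17, adjusted p = 0.0211). Ddr2, the receptor kinase of fibroblasts, had levels of -0.59 and -0.36 in mimic, -1.68 and -1.61 in control-miRNA, -2.21 and -2.30 in IRI and -1.55 and -1.29 in sham kidneys. It was 1.78 ± 0.17 higher in mimic than in IRI, and 2 of the 8 receptors were called higher there and none lower. Of all genes, 9.85% were called higher there and 5.59% lower.

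The other basement membrane genes also split. Of 15 laminin, nidogen, perlecan and agrin genes, 5 were called higher and 2 lower in IRI against sham, where 9.47% and 8.81% of all genes were. Lamb3, a laminin chain of epithelia, rose by 2.29 ± 0.33, while Lamc3 and Lama2, other laminin chains, fell by 2.85 (SE 0.20) and 1.93 (SE 0.25), all with adjusted p of 0.00655 or less. In mimic against IRI 3 of 15 were called higher, where 9.85% of all genes were, and none lower, where 5.59% were. The 3 were Lamc3 (1.77 ± 0.20), Hspg2, which encodes perlecan (1.39 ± 0.17), and Lama2 (1.34 ± 0.25). Lamc3 had levels of -2.05 and -1.60 in mimic, -2.39 and -2.28 in control-miRNA, -3.68 and -3.51 in IRI and -0.65 and -0.84 in sham kidneys, with no overlap between groups, and IRI kidneys at the bottom as for Col5a2 and Col6a1.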

How the data were processed

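Total RNA from 30 mg of kidney of each of 8 mice was labelled with Cy3 and hybridised to 1 array each, per the labels' protocols. The submitters' processing notes name Agilent Feature Extraction 12.0.3.1 for the scanner output. Per the file headers, the processed signal is an intensity from which background and a spatial trend were removed array by array, with no scaling across arrays. Raw mean and background intensity and spot flags (other values of 0 or 1) stand beside it in the deposited files. In the deposited series table the values are each a linear ratio of a probe to its median over the arrays, by its values; the sources used here do not give its scaling before that. It served as an alternative. The 8 arrays shared 1 slide and 1 scan time.

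Control spots and spots flagged as outliers (79 to 127 per array) were left out. No spot was saturated. Processed signals were divided by their array's 75th percentile, put on the log2 scale and averaged per probe, and a probe entered the tests if it was well above background on each array of 1 or more groups (32218 of 56605). The brightest such probe stood for its gene. Gene names were updated through RefSeq accessions and symbols where they matched, except for the collagen names, which are those of the files. Bounds written as "at least" set the mean of the bright group against, per dim array, its own value or, if higher, the array's lowest signal of a probe well above background.

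The fit used lmFit and eBayes of limma 3.58.1 (R 4.3.3) and was applied to all 8 arrays with a mean per group (6.84 degrees of freedom after moderation). It was tested on simulated data with known changes. Precision is limited by how few arrays there are. The members and gene lists were chosen with earlier results of these data known. The text names the chains with the 10 smallest p-values in each comparison and a fixed set of fibrillar, type IV, type VI and multiplexin chains, and up to 4 genes of each other list by smallest p; 1 such result is not reported here. Alternatives were normexp background correction, quantile normalization, the deposited table, other filters on dim probes, the mean over probes, brightness and slide column as covariates, array weights, the compared arrays alone and leaving out each array. The slide-column covariate set column 1 against 2 and column 3 against 4, which lie within groups. It therefore could not adjust a difference between groups that lie in different columns.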

Additional observations from a re-analysis of the deposited data

How the results depend on the processing

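Of the log2 differences of named chains, 1 changed sign past the threshold: Col1a2 in IRI minus sham was 0.95 with the mean over the gene's probes. Leaving out 1 array at a time, the chains called higher numbered 2 to 9 in IRI minus sham, 6 to 14 in all injured minus sham, 0 to 10 in mimic minus control miRNA, 0 to 14 in mimic minus IRI and 0 to 11 in injected minus IRI. The chains called lower numbered 1 to 6, 0 to 5, 0 to 2, 0 to 2 and 0 to 1 in the same comparisons. In these comparisons the numbers of all genes called changed with the array left out too. A lone array left in a group is assumed to vary like the other groups. With array brightness as a covariate 1 chain was called lower in IRI minus sham, 5 were called lower in all injured minus sham and 0 were called higher in mimic minus IRI. All genes called lower then numbered 844 in IRI minus sham, against 1874, and 2904 in all injured minus sham, against 2600. With the slide column as a covariate 2 chains, and 1100 of all genes, were called lower in IRI minus sham, and 0 chains higher in mimic minus IRI. In both comparisons the groups lie in different columns, for which that covariate could not adjust. With array weights 5 chains, and 3938 of all genes, were called lower in all injured minus sham, and 0 chains higher in mimic minus IRI. With the compared arrays alone 0 chains were called higher in mimic minus IRI. With normexp background correction 7 were called higher in mimic minus control miRNA, and 19 higher and 1 lower in mimic minus IRI. With probes well above background on all arrays 3 were called higher in mimic minus control miRNA. The causes were not tested. The other 177 counts of chains stayed within 1.5 times their value. Control miRNA minus IRI had 0 chains called in each direction in every setting.

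In mimic minus IRI the median of all genes was 0.22 with normexp and 0.49 without a filter on dim probes, against 0.09 in the report. All genes called higher numbered 7260 and 10199 in these settings, against 2095. In mimic minus control miRNA 3916 of all genes were called higher and 1909 lower with normexp, and 993 higher with probes above background on all arrays, against 0 in the report. No paired analysis was possible because each array came from a different mouse. The 13 chains that did not pass the filter give no information on change, since their signal was too near background.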
